A study of Homo sapiens with 18 samples.

Results

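The genes described here carry a symbol made of ZNF, digits and an optional letter, the names given to most human zinc finger genes, and were well expressed in HEK cells. They were chosen by their level: a gene was kept if its value on the log2 scale averaged at least 7 over all 18 arrays, taking the probe set with the highest mean for each symbol. Of 471 ZNF symbols with a probe set, 192 met this level (40.8%), and they stand among 14884 genes with a symbol. Chromosome 19 held 88 of the 192, out of 226 ZNF symbols there (38.9%), and the other chromosomes held 104.

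Most of these proteins bind DNA through arrays of fingers, and each finger is a short loop held by a zinc ion. The largest class also carries a KRAB domain, which recruits the scaffold protein TRIM28. TRIM28 in turn brings a histone methyltransferase and HP1 proteins that form heterochromatin, often over retrotransposons. The genes arose by tandem duplication, and many lie in clusters of close relatives on chromosome 19.

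Expression was measured in 6 lines of HEK, an established human embryonic kidney line, with 3 arrays per line from replicate cultures. Lines A10, A30 and B21 are labelled ATXN1L-KO. Parental HEK and the CRISPR control lines N4 and N8 are labelled ATXN1L wild type. The labels state CRISPR treatment, puromycin selection and isolation of single colonies, so each edited line is 1 clone, and all lines were grown in DMEM with 10% FBS. ATXN1L is known to bind and stabilise CIC, a repressor of transcription, and the series asks how expression differs where ATXN1L was edited.

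The ATXN1L probe set does not check the edit. Its values ran from 7.20 to 7.61 (median 7.43) over the arrays of the KO-labelled lines and from 7.05 to 7.29 (median 7.16) over the wild-type arrays. Of 10 kidney epithelium and HEK markers, 6 passed the filter on dim genes described with the processing. KRT18 was at 9.67, VIM at 8.76, LHX1 at 6.78, EMX2 at 6.63, KRT8 at 6.495 and PAX2 at 5.55 (mean log2 over all arrays), while PAX8 was dim (highest 5.14). KRT18 differed by 0.71 in B21 and EMX2 by −0.26 in A10 against the wild-type lines (limma adjusted p = 0.00352 and 0.0419). VIM differed by 0.23 in N8 against the parental cells (0.0248), and KRT18 by −0.395 in replicate 1 (0.000451). Of the other lists, few markers had a probe set with a symbol: 1 of 4 for leukocytes, 2 of 3 for keratinocytes and 2 of 3 for endothelium, all dim, and 1 of 5 for fibroblasts. That one, LUM, averaged 5.33, passed the filter, and differed by −0.34 in A30 and 0.70 in B21 against the wild-type lines (limma adjusted p = 0.0206 and 0.000275); its part in the members' results was not tested. One array of A10, replicate 1, differed from the others of its line. After subtraction of each gene's mean, it correlated across the 192 ZNF genes at r = 0.122 and 0.155 with replicates 2 and 3 of A10, and with the arrays of the same number at −0.195 for A30, −0.325 for B21, 0.178 for N8, 0.402 for N4 and 0.390 for the parental line. Replicates 2 and 3 of A10 correlated at 0.748. Genes of 1 cluster are not independent, so these values are a description, and the A10 count, chromosome 19 contrast, run medians and named members are also given without that array.

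Promoters were read from RefSeq (GRCh38.p14), as the 250 bases before and 50 after each start site, for 170 of the 192 genes. The stretches below were chosen after the values were seen. ZNF492, ZNF43 and ZNF85 are printed because they were among the highest members in A30 and B21 against the wild-type lines, and ZNF91 because its promoter is close to theirs while its expression differed little. ZNF829, from the next run of genes along the chromosome and also higher in A30 and B21, is shown as an unrelated promoter. Capitals mark matches to the CIC octamers TGAATGAA or TGAATGGA in ZNF492, ZNF43 and ZNF91, and to the ETS letters CCGGAAGT in ZNF829. All are read 5′ to 3′ along the gene's own strand, so a match on the opposite strand appears as its reverse complement.
ZNF492: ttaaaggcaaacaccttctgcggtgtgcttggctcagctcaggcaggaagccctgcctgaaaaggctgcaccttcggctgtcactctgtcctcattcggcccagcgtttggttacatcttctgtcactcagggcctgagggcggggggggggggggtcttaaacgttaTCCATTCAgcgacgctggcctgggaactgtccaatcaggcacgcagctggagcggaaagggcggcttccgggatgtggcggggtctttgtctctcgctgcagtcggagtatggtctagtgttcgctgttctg
ZNF43: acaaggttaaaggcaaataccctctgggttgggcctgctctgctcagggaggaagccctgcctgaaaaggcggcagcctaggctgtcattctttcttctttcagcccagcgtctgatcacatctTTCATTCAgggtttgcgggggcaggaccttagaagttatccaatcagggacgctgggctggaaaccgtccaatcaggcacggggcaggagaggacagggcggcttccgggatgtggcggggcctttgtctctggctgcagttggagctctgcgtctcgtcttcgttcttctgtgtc
ZNF85: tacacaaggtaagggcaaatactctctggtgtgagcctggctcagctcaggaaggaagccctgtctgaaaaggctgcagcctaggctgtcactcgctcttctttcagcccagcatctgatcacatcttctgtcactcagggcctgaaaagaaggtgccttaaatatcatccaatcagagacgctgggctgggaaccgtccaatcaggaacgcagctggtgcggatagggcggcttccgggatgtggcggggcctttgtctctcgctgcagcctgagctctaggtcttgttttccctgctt
ZNF91: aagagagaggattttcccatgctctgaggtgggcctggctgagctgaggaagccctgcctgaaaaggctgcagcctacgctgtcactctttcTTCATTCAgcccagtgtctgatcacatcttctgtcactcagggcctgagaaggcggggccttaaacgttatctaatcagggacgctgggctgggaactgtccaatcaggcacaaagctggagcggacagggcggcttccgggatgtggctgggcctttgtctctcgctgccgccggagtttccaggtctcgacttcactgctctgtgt
ZNF829: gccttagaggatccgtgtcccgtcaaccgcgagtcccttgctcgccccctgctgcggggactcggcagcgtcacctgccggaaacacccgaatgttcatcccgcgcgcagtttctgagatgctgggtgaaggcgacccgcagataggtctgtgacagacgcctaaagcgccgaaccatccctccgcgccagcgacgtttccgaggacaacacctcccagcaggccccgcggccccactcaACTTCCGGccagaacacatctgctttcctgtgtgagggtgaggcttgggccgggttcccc

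ZNF492 lies at chr19:22634074-22634373 (plus strand), ZNF43 at chr19:21836133-21836432 (minus strand), ZNF85 at chr19:20923001-20923300 (plus strand), ZNF91 at chr19:23395422-23395721 (minus strand) and ZNF829 at chr19:36916242-36916541 (minus strand). Promoters of ZNF492, ZNF43, ZNF85, ZNF91, ZNF681 and ZNF100 were 72.9% to 81.8% identical in pairwise alignment, and each was 46.7% to 47.9% identical to that of ZNF829, apart from ZNF681 at 45.0%. All 6 share the letters gtccaatcagg, which include the CCAAT box and begin 53 to 60 bases before the start site. Without ZNF100, the other promoters share agggcggcttccgggat, beginning 25 to 31 bases before it.

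Motifs were searched on both strands. CCGGAAGT occurred in 18.8% of the members' promoters, against 4.44% of all 27305 promoters and 10.4% of those of other well expressed genes, and its share was 20.5% on chromosome 19 and 17.2% elsewhere. The YY1 motif, searched as 10 letters, occurred in 2.35% of the members' promoters, in 1.28% of all promoters and in 3.79% of those of other well expressed genes. A CIC octamer occurred in 4.12% of the members' promoters, in 2.66% of all promoters and in 1.64% of those of other well expressed genes. On chromosome 19 the 4 matches to a CIC octamer were ZNF43, ZNF91, ZNF681 and ZNF492, all in 1 run of neighbours whose other 8 promoters had none. Between the KO-labelled and wild-type lines these 4 differed by 0.73 for ZNF492, 0.33 for ZNF43, 0.07 for ZNF91 and −0.01 for ZNF681 (log2), and the 8 with no match by 0.09 to 0.36. No match says only that these letters are not in this window.

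The level chose the members, so levels are given as a description with no test. Over all arrays the members' means had a median of 7.67 (log2), with 7.68 on chromosome 19 and 7.67 elsewhere. ZNF121 was highest at 10.86, followed by ZNF146 at 10.10, ZNF207 at 10.03, ZNF100 at 9.51 and ZNF280C at 9.42. ZNF207 encodes a microtubule-binding protein that helps load BUB3 at kinetochores, and ZNF146 encodes a protein made almost only of fingers. Just inside the threshold were ZNF347 at 7.02, ZNF639 at 7.01 and ZNF747 at 7.0, and just outside it ZNF568 at 6.99, ZNF689 at 6.98 and ZNF131 at 6.98. All 192 members passed the filter on dim genes, and 215 of the 279 ZNF genes under the threshold did. The median SD between arrays of a line was 0.117 for the members, 0.104 for other well expressed genes and 0.123 for all genes tested.

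No member passed in the comparison of the 3 KO-labelled with the 3 wild-type line means, where limma also called 0% of all 9686 genes (adjusted p under 0.05). At an unadjusted p under 0.05, 15 of the 192 members and 937 of all genes stood out. Fitting arrays with the line as a random block also called 0 members, whereas ignoring the line, so that arrays of 1 clone count as independent, called 15. Leaving out line A10 called 1, ZNF385A. Line means did not overlap between the labels for 25 members (13.0%), 6 higher and 19 lower in the KO-labelled lines. Over all genes tested the share was 14.6% (7.37% higher, 7.22% lower), so with both directions together the members were not above it. More members were lower than higher, unlike genes in general, and this was not tested. Of these 25, chromosome 19 held 8 (2 higher, 6 lower), or 9.09% of its members. Other well expressed genes there had 16.6% (32 higher, 14 lower). Other chromosomes held 17 (4 higher, 13 lower), or 16.3%, beside 14.9% of other well expressed genes there (381 higher, 327 lower).

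Members with the smallest p on the higher side were ZNF85, ZNF280B, ZNF714, ZNF622 and ZNF70. ZNF85 averaged 8.77 ± 0.14 in the KO-labelled and 8.45 ± 0.0033 in the wild-type lines (SD, n = 3 lines each), a difference of 0.32 ± 0.09 (SE, limma adjusted p = 0.436). ZNF622, which acts in the maturation of the large ribosomal subunit, averaged 8.46 ± 0.23 in the KO-labelled and 8.13 ± 0.10 in the wild-type lines (limma adjusted p = 0.471). On the lower side they were ZNF385A, ZNF691, ZNF620, ZNF703 and ZNF704. ZNF385A, an RNA-binding partner of p53, averaged 7.21 ± 0.28 in the KO-labelled and 7.70 ± 0.10 in the wild-type lines (difference −0.49 ± 0.14, SE, limma adjusted p = 0.408). ZNF703, a co-repressor amplified in some breast cancers, averaged 7.83 ± 0.12 in the KO-labelled and 8.08 ± 0.08 in the wild-type lines (limma adjusted p = 0.468). None of these differences passed, and the smallest two-sided p an exact permutation test of 1 gene can give with this many lines is 0.1.

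**Figure D1:**
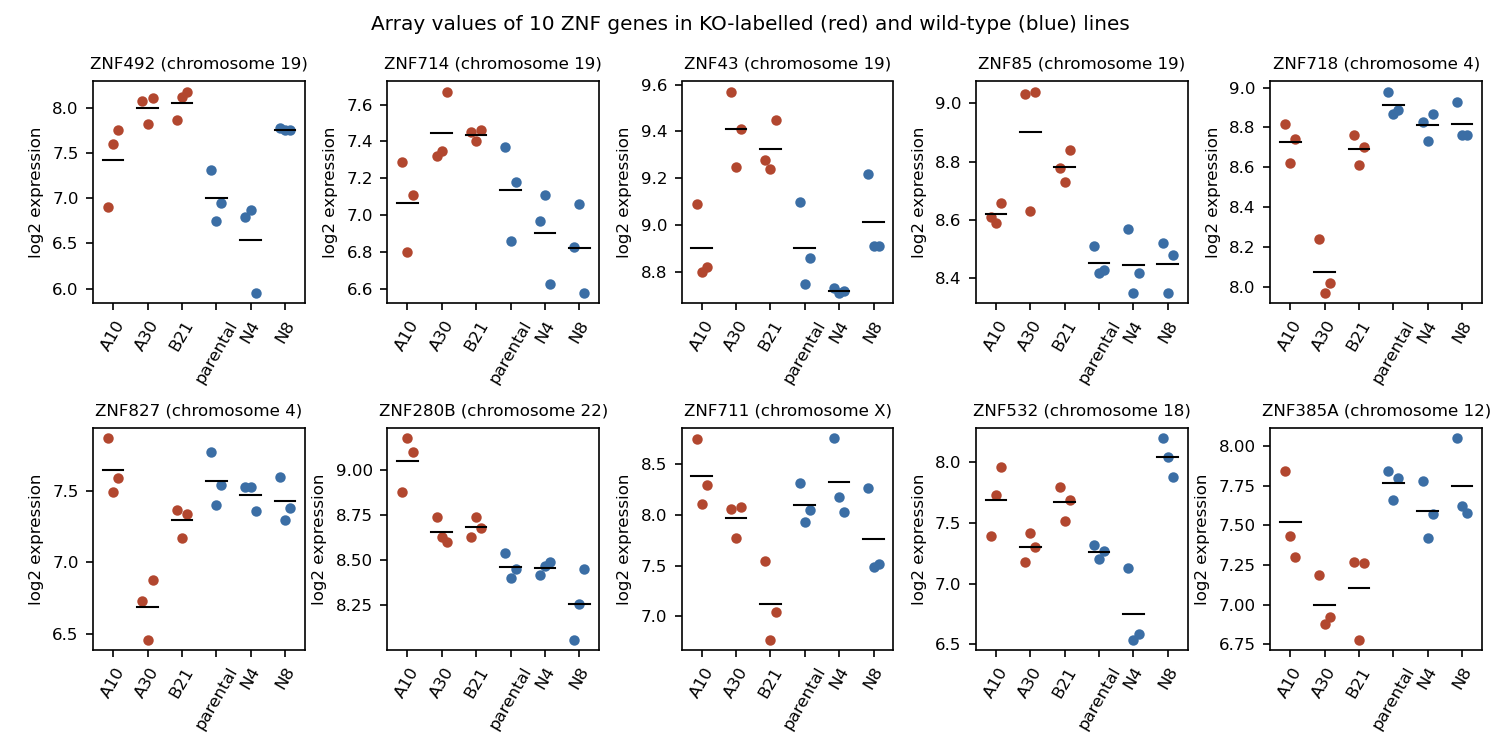
Log2 expression of 10 ZNF genes on each array (points, 3 per line), with the line mean as a bar and KO-labelled lines in red left of the wild-type lines in blue. ZNF718 and ZNF827 were lowest in A30, while ZNF492 was high in A30, B21 and also in the wild-type line N8.

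Chromosome 19 members stood above the members of other chromosomes in A30 and B21, but not in A10. For the 3 lines pooled, the median difference from the wild-type lines was 0.06 over chromosome 19 members, of which 71.6% were positive, and −0.06 over the others, of which 37.5% were positive. Over all genes tested the median was −0.0022. A shift in the same direction was present in genes of chromosome 19 without a ZNF symbol: the 277 other well expressed genes there, a few of them zinc finger genes with other names, had a median of 0.07, against −0.01 for 4740 well expressed genes elsewhere. Dim ZNF genes had medians of 0.06 on chromosome 19 and −0.06 elsewhere. The contrast was thus present outside the well expressed members too.

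The lines differed in that contrast, which is given as the median deviation of chromosome 19 members from the wild-type array mean, minus that of the other members, on each array. It was 0.26, 0.16 and 0.21 in A30, and 0.14, 0.11 and 0.11 in B21. In A10 it was −0.02, −0.04 and −0.05, and the 9 wild-type arrays lay between −0.03 and 0.04. All arrays of A30 and B21 lay above every wild-type array, and all arrays of A10 lay below 0. The SD of this value between arrays of a line was 0.0264, and no test was made of it, because the members were chosen with results of these data known.

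**Figure D2:**
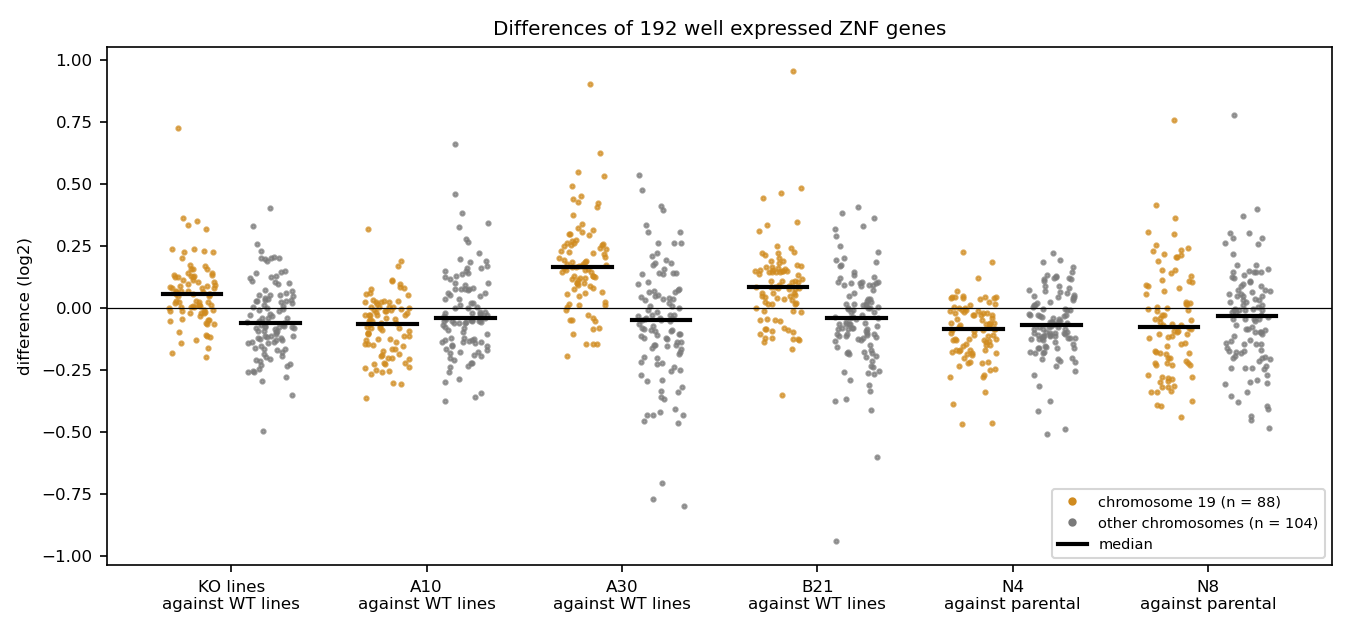
Log2 difference of each of the 192 ZNF genes (points) in the comparisons named under the axis, for chromosome 19 (orange, n = 88) and the other chromosomes (grey, n = 104), with black bars at the medians. The chromosome 19 median stood at 0.17 in A30 and 0.085 in B21, above those of the other members at −0.05 and −0.04, and at −0.06 in A10, beside −0.04.

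Single lines were compared on arrays, each KO-labelled line's 3 against the mean of the wild-type lines, so p-values measure the spread between cultures and not between clones. In A30, 67 members passed against the wild-type lines (43 higher, 24 lower), beside 29.3% of all genes tested. All 30 chromosome 19 members called were higher (34.1%; 12.9% of all genes were called higher), and 0 were lower. Among other well expressed genes of chromosome 19, 99 were called higher (35.7%) and 11 lower, so the members' share was close to that of their neighbours. On other chromosomes 13 members were called higher and 24 lower. The lower share, 23.1%, stood beside 16.3% over all genes and 19.8% over other well expressed genes of those chromosomes. Of 108 dim ZNF genes outside chromosome 19, 1 was called higher and 23 lower. When arrays were centred on their medians the A30 calls were 62 higher and 21 lower. No array left out moved the A30 count by over 1.5 times (47 to 74). Taking the parental cells alone as reference gave 42 calls, 20 higher and 22 lower, with 13 higher and 0 lower on chromosome 19.

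The largest rises in A30 were ZNF492, ZNF383 and ZNF841, all on chromosome 19. ZNF492 was at 8.08, 7.82 and 8.11 on the A30 arrays, against 5.95 to 7.78 (median 6.95) on the 9 wild-type arrays, and rose by 0.90 ± 0.18 (SE, limma adjusted p = 0.00127). The A30 arrays lay above all wild-type arrays, but the highest wild-type values were those of N8, at 7.78, 7.75 and 7.75. ZNF841 was at 9.39, 9.27 and 9.17 in A30, against 8.50 to 9.01 (median 8.68) in the wild-type arrays, with no overlap (0.55 ± 0.08, limma adjusted p = 6.36e-05). ZNF383 was at 8.23, 7.80 and 8.15 in A30, against 6.87 to 7.73 (median 7.47) in the wild-type arrays (0.62 ± 0.11, limma adjusted p = 0.000578). Its A30 arrays too lay above every wild-type array. ZNF473, which binds the U7 snRNP that processes histone transcripts, rose by 0.41 ± 0.07, with 7.81, 7.82 and 7.76 in A30 and 7.19 to 7.56 in the wild-type arrays.

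Outside chromosome 19 the falls in A30 were deepest on chromosome 4. All 4 members there fell, with a median of −0.60, beside −0.41 for the other 198 well expressed genes of that chromosome. ZNF718 was at 8.24, 7.97 and 8.02 in A30, against 8.73 to 8.98 (median 8.87) in the wild-type arrays (−0.77 ± 0.07, SE, limma adjusted p = 5.17e-07). ZNF827, whose protein brings the NuRD remodelling complex to telomeres, was at 6.73, 6.46 and 6.88 in A30, against 7.30 to 7.77 (median 7.53) in the wild-type arrays (−0.80 ± 0.10, limma adjusted p = 2.30e-05). No A30 array overlapped the wild-type arrays for either gene. With each line centred on the running median of 41 neighbouring genes, ZNF827 differed by −0.26 (limma adjusted p = 0.0812). ZNF718 kept its call in all 32 alternatives, that centring included, at −0.57 where weakest (limma adjusted p up to 2.49e-05). ZNF385A, on chromosome 12, was at 7.19, 6.88 and 6.92 in A30, against 7.42 to 8.05 (median 7.66) in the wild-type arrays (−0.71 ± 0.13, limma adjusted p = 0.000650). ZNF410, known as an activator of the NuRD gene CHD4, fell by 0.43 on the log2 scale, with 6.82, 6.80 and 7.06 in A30 and 7.17 to 7.49 in the wild-type arrays. CHD4 itself differed by −0.13 ± 0.05 in A30 (limma adjusted p = 0.0766). Chromosome 7 held 5 of the 13 A30 rises outside chromosome 19 and no fall, with a median of 0.14 over its 13 members, beside 0.09 for other well expressed genes there.

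In B21, 28 members passed against the wild-type lines (18 higher, 10 lower), beside 16.0% of all genes tested (8.82% higher, 7.20% lower), so the members' share of 14.6% was near the background. Chromosome 19 held 11 of the rises and 1 of the falls, and the other chromosomes 7 rises and 9 falls. The chromosome 19 members had a median of 0.085, beside 0.12 and 62 rises for the 277 other well expressed genes of that chromosome. Leaving out replicate 1, 2 or 3 of B21 gave 17, 12 or 11 calls, and the parental cells alone as reference gave 17 (6 higher, 11 lower).

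ZNF492 was at 7.87, 8.12 and 8.18 in B21 and rose by 0.96 ± 0.18 against the same wild-type arrays (SE, limma adjusted p = 0.00185). ZNF714 was at 7.45, 7.40 and 7.46 in B21, against 6.58 to 7.37 (median 6.97) in the wild-type arrays (0.48 ± 0.13, limma adjusted p = 0.0170). B21 lay just above the highest wild-type array, and the call for ZNF714 was lost without replicate 1, 2 or 3 of B21 (limma adjusted p up to 0.0757). ZNF383 was at 7.95, 7.76 and 7.99 in B21 and rose by 0.46 ± 0.11 (limma adjusted p = 0.0104), a call lost without replicate 3 of B21 (0.0712) or with the mean of its probe sets (0.22, 0.119). Of the falls, ZNF711 was the deepest. This X-linked intellectual disability gene, whose protein works with the histone demethylase PHF8, was at 7.55, 6.77 and 7.04 in B21, against 7.49 to 8.76 (median 8.05) in the wild-type arrays (−0.94 ± 0.19, limma adjusted p = 0.00314). Replicate 1 of B21 lay inside the wild-type range, and replicate 1 was the highest array of each line but A30. ZNF385A was at 7.27, 6.78 and 7.26 in B21, all below the wild-type arrays (−0.60 ± 0.13, limma adjusted p = 0.00498), but without replicate 2 of B21 the difference was −0.44 (0.0624). ZNF774 was at 6.78, 6.68 and 6.87 in B21, against 7.02 to 7.54 (median 7.14) in the wild-type arrays (−0.41 ± 0.08, limma adjusted p = 0.00281).

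In A10, 17 members passed against the wild-type lines (6 higher, 11 lower), which makes 8.85% of members, beside 8.40% of all genes tested (3.84% higher, 4.56% lower). No chromosome 19 member was called higher and 5 were called lower, opposite in direction to A30 and B21, and this difference in counts was not tested. The chromosome 19 members had a median of −0.06, beside −0.05 for other well expressed genes of that chromosome, of which 0 were called higher and 20 lower. Without replicate 1 of A10 the count was 28 (8 higher, 20 lower; 1 and 9 on chromosome 19), and the chromosome 19 median minus the other median was −0.05, against −0.02 with it. The count was 5 without replicate 2 and 8 without replicate 3 of A10. It was 11 without replicate 1 or replicate 3 of the parental cells, 10 without replicate 3 of N4, 10 without replicate 2 of N8 and 11 without replicate 3 of N8.

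Both members on chromosome 22, ZNF280B and ZNF70, were the largest rises in A10. ZNF280B was at 8.88, 9.18 and 9.10 in A10, against 8.06 to 8.54 (median 8.45) in the wild-type arrays (0.66 ± 0.08, SE, limma adjusted p = 5.17e-05). ZNF70 was at 8.25, 8.41 and 8.57 in A10, against 7.80 to 8.11 (median 7.97) in the wild-type arrays (0.46 ± 0.08, limma adjusted p = 0.00130). Neither gene overlapped between A10 and the wild-type arrays, and other well expressed genes of chromosome 22 had a median of 0.14 in A10. ZNF483 was at 7.53, 7.40 and 7.35 in A10, against 6.69 to 7.40 (median 6.97) in the wild-type arrays (0.38 ± 0.07, limma adjusted p = 0.00182). Its reference was uneven, because the parental arrays stood at 7.31, 7.40 and 7.34, and against them alone A10 differed by 0.08 (limma adjusted p = 0.657).

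Among the falls in A10, ZNF174, a SCAN domain gene, was at 7.53, 7.45 and 7.65, against 7.59 to 8.20 (median 7.87) in the wild-type arrays (−0.37 ± 0.06, SE, limma adjusted p = 0.00139). The lowest wild-type array, replicate 1 of N4, lay inside the A10 range. ZNF75A was at 8.87, 8.42 and 8.57 in A10, against 8.83 to 9.18 (median 8.94) in the wild-type arrays (−0.34 ± 0.08, limma adjusted p = 0.0130), and its call was lost without replicate 2 or 3 of A10 (adjusted p up to 0.133). ZNF607 was at 8.69, 7.99 and 8.18 in A10, against 8.51 to 8.87 (median 8.64) in the wild-type arrays (−0.36 ± 0.11, limma adjusted p = 0.0430). Replicate 1 of A10 alone lay within the wild-type range. Without it ZNF607 was at −0.56 and kept the call (limma adjusted p = 0.000302), while the call was lost in 14 of the 18 fits that left out 1 array, with −0.21 and an adjusted p of 0.315 without replicate 2 of A10. ZNF274, which recruits a histone methyltransferase to the 3′ ends of other zinc finger genes, was at 6.84, 6.84 and 6.95 in A10, against 7.04 to 7.40 (median 7.15) in the wild-type arrays (−0.30 ± 0.06, limma adjusted p = 0.00715). Without replicate 1 of A10 the differences were 0.75 for ZNF280B, 0.54 for ZNF70, 0.33 for ZNF483, −0.37 for ZNF174, −0.47 for ZNF75A and −0.28 for ZNF274.

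ZNF280B was the only member called in A10, A30 and B21 with the same sign. The 3 comparisons share the wild-type lines, so the values stand side by side: 0.66 ± 0.08 in A10, 0.26 ± 0.08 in A30 and 0.29 ± 0.08 in B21 (SE). ZNF462 and ZNF850 were called in opposite directions in different lines. Neither kind of call was counted over all genes tested, so whether members had many or few cannot be read from this. Line A10 had ZNF462 at a difference of 0.27 and ZNF850 at −0.21, A30 had them at −0.22 and 0.23, and B21 at 0.04 and 0.22. Limma's F test among the 3 KO-labelled lines, which needs no wild-type line, called 63 members (27 on chromosome 19, 36 elsewhere), beside 25.8% of all genes and 31.2% of other well expressed genes outside chromosome 19. It called 40 without replicate 2 of A10. The widest ranges of the 3 line means were 1.27 for ZNF711, 0.96 for ZNF827 and 0.65 for ZNF383 (limma adjusted p = 0.00247, 0.000114 and 0.00573). The median SD was 0.129 for members and 0.112 for other well expressed genes between KO-labelled line means, and 0.0976 and 0.1001 between wild-type line means.

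Along chromosome 19 the members fell into 14 runs, where a run ends at 10 or more genes in a row that have no zinc finger symbol. The 6 runs of at least 7 members held 75 of the 88. The run of 12 members between ZNF101 and ZNF507, which spans the centromere, had the highest A30 median of these 6, at 0.36, with all 12 positive and 7 called higher. In B21 its median was 0.18, again with 12 positive, and 4 were called. In A10 its median was 0.02, or −0.05 without replicate 1 of A10, and none was called. The dim ZNF genes of the same run, 13 tested, had medians of 0.29 in A30 and 0.18 in B21.

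This run holds ZNF492, ZNF43, ZNF714, ZNF85, ZNF431, ZNF101, ZNF254, ZNF100, ZNF536, ZNF507, ZNF91 and ZNF681. ZNF43 was at 9.57, 9.25 and 9.41 in A30 and 9.28, 9.24 and 9.45 in B21, against 8.71 to 9.22 (median 8.86) in the wild-type arrays. All A30 and B21 arrays lay above the wild-type arrays, by differences of 0.53 ± 0.09 and 0.44 ± 0.09 (SE, limma adjusted p = 0.000356 and 0.00332). ZNF85 was at 9.03, 8.63 and 9.04 in A30 and 8.78, 8.73 and 8.84 in B21, against 8.35 to 8.57 (median 8.43) in the wild-type arrays. ZNF91, which is known to repress SVA retrotransposons, was at 7.44, 7.15 and 7.60 in A30 and 7.42, 7.17 and 7.5 in B21, against 7.10 to 7.43 in the wild-type lines, and overlapped them (0.12 ± 0.09 in A30 and 0.08 ± 0.09 in B21, limma adjusted p = 0.354 and 0.584). These paralogs are close in sequence, and the share of signal that a probe set may take from a relative was not tested.

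The wild-type reference of the same run was not even. Against the parental cells its median was −0.16 in N4 and −0.18 in N8, with 0 of 12 and 3 of 12 members positive. Set against the parental cells alone, its median in A10 was −0.06, that in A30 0.27 and that in B21 0.06. The B21 shift of 0.18 was thus 0.06 on that reference, while the A30 shift stayed above 0.2. Over all chromosome 19 members, the contrast with the other members was 0.11 in B21 on that reference, beside 0.13 on all wild-type lines. In A30 that contrast was 0.205, beside 0.22, and in A10 −0.055, beside −0.02.

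**Figure D3:**
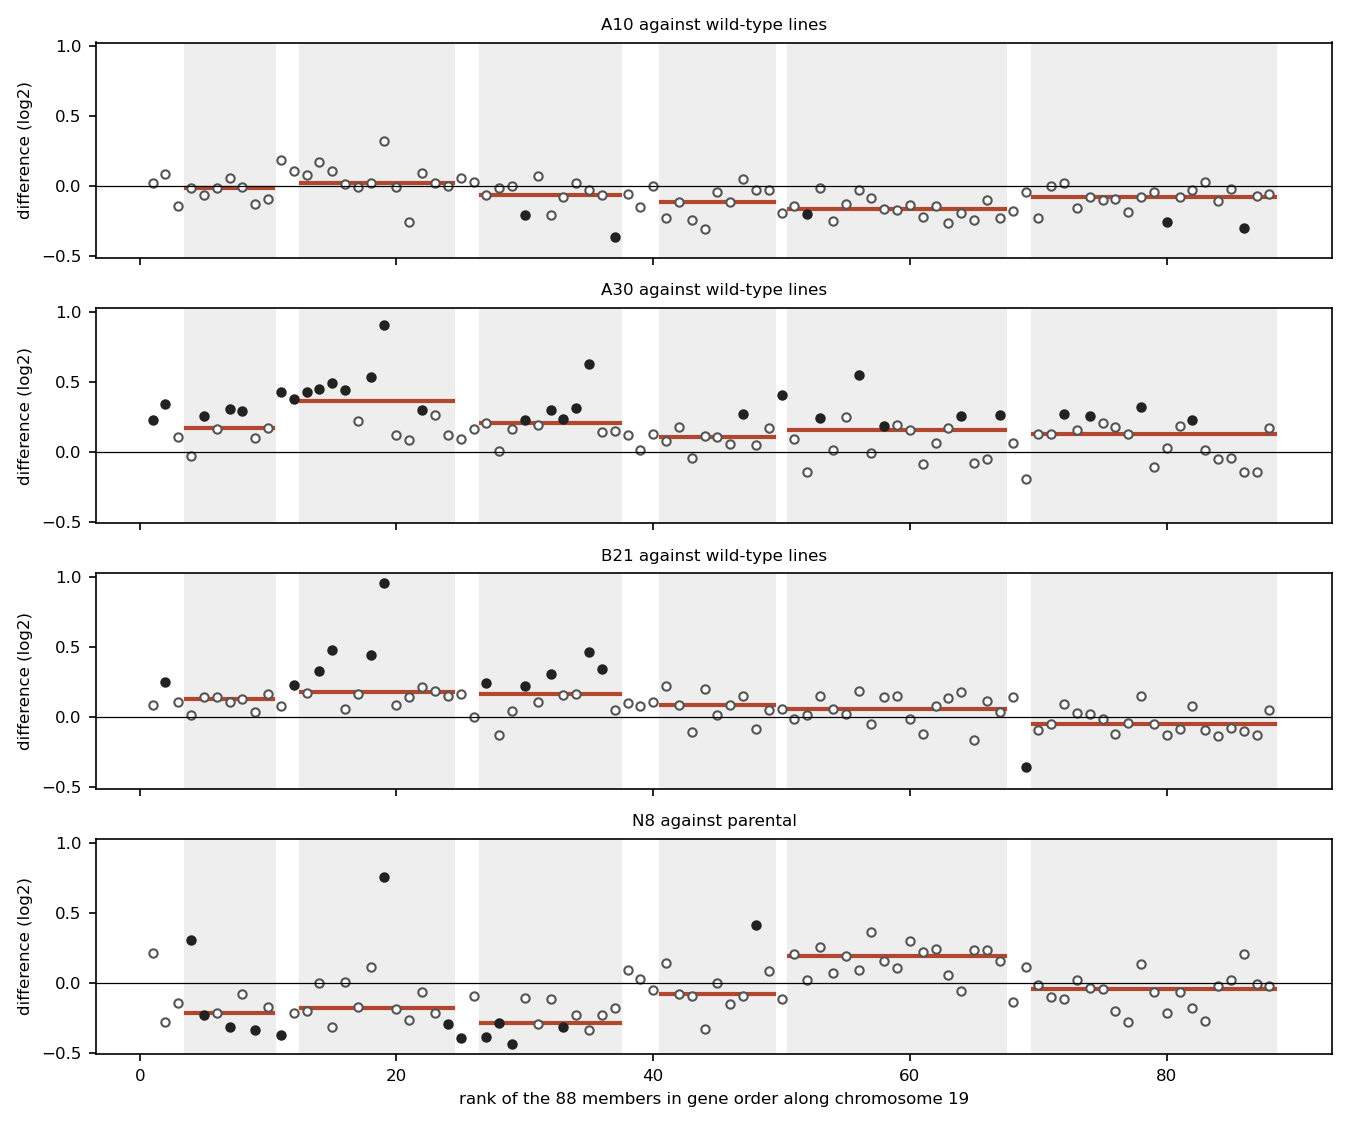
Log2 difference of the 88 chromosome 19 members in gene order in 4 comparisons, with called members filled (limma adjusted p under 0.05), runs of at least 7 members shaded and red lines at their medians. In A30 all shaded medians are positive, from 0.10 to 0.36, while in N8 the run of 17 members stands at 0.19 between runs below 0.

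The other runs did not move alike. The run of 11 from ZNF146 to ZNF607 had medians of 0.20 in A30 (5 called higher) and 0.17 in B21 (5 called higher), −0.06 in A10, and −0.29 in N8 against the parental cells (4 called lower). Set against the parental cells alone, that run stood at 0.08 in A30, 0.03 in B21 and −0.21 in A10. The run of 17 from ZNF577 to ZNF331 had all 17 members below 0 in A10, with a median of −0.16 and 1 called, and a median of 0.15 in A30. In N8 it ran the other way from its neighbours, with 16 of 17 members positive, a median of 0.19 and none called. The run of 19 from ZNF71 to ZNF584, at the end of the long arm, had medians of 0.13 in A30, −0.05 in B21 and −0.08 in A10. The runs of 7 from ZNF558 to ZNF562 and of 9 from ZNF576 to ZNF180 had medians of 0.17 and 0.10 in A30 and 0.13 and 0.08 in B21. Against the parental cells alone, the A30 medians were 0.14 for the run of 7, 0.11 for that of 9, 0.11 for that of 17 and 0.07 for that of 19, and the B21 medians were 0.08, 0.03, 0.08 and −0.09. Without replicate 1 of A10, the A10 medians were −0.16 for the run of 11, −0.23 for that of 17 and −0.13 for that of 19. With each line centred on the running median of 41 neighbouring genes, the A30 count was 29, with 4 higher and 5 lower on chromosome 19. The B21 count was 13. Those 41 genes include the members and the dim ZNF genes beside them, so the centring also takes out a shift shared within a run. A lower count was therefore partly fixed in advance, and it cannot tell the members from their neighbours. Copy number of these segments was not measured here.

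**Figure D4:**
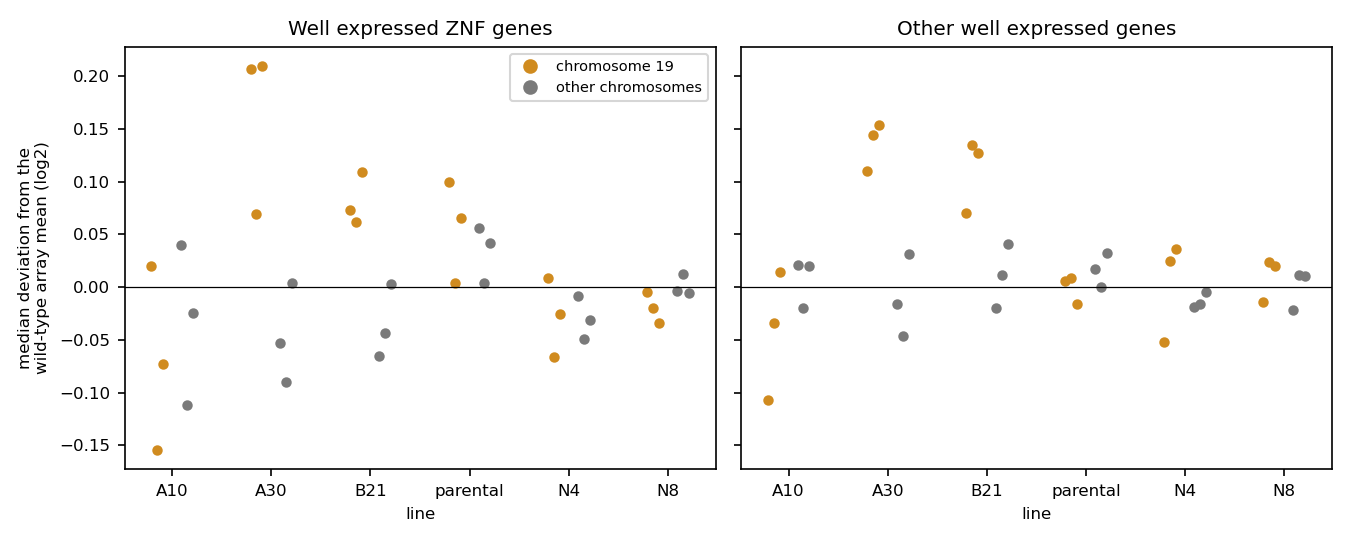
Median deviation of each array from the wild-type mean (log2; points, 3 arrays per line) for ZNF genes (left) and other well expressed genes (right), on chromosome 19 (orange) and other chromosomes (grey). The orange points of A30 and B21 lie above the grey points of the same lines in both panels, at 0.06 to 0.21 for ZNF genes and 0.07 to 0.15 for other genes.

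Among the wild-type lines, N8 differed from the parental cells more than N4 did. In N8, 28 members passed (9 higher, 19 lower), beside 14.7% of all genes tested (7.67% higher, 7.03% lower). In N4, 2 members passed (0 higher, 2 lower), beside 0.547% (0.206% higher, 0.341% lower). Both comparisons share the parental arrays. Leaving out replicate 1, 2 or 3 of the parental cells gave 15, 16 or 14 members in N8, and leaving out replicate 1 of N8 gave 16. The N4 count was 4 without replicate 1 of A10 and 0 without replicates 2 or 3 of the parental cells or replicate 2 of N4.

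ZNF532, whose protein is found with the chromatin reader ZMYND8, had the widest range among wild-type lines. It was at 8.20, 8.04 and 7.88 in N8, 7.13, 6.54 and 6.59 in N4, and 7.32, 7.20 and 7.27 in the parental cells. N8 lay above all parental arrays (0.78 ± 0.15, SE, limma adjusted p = 0.00265), and the N4 difference of −0.51 ± 0.15 did not pass (0.140). ZNF592, a close relative with the same partner, was at 8.89, 8.89 and 8.85 in N8, against 8.63, 8.42 and 8.47 in the parental cells, and rose by 0.37 ± 0.09 (limma adjusted p = 0.0110). ZNF24, a SCAN domain gene, was at 7.48, 7.78 and 7.65 in N8, against 7.99, 8.13 and 8.24 in the parental cells (−0.48 ± 0.11, limma adjusted p = 0.00667). ZNF567 was at 7.98, 8.11 and 8.06 in N8, against 8.38, 8.43 and 8.66 in the parental cells (−0.44 ± 0.08, limma adjusted p = 0.00251), and neither gene overlapped between the lines. Neither call was lost when 1 array was left out, but each was lost in 2 of all 30 alternatives. Over these, ZNF24 differed by as little as −0.28 (limma adjusted p up to 0.143) and ZNF567 by −0.24 (up to 0.105).

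Other N8 calls were lost when single arrays were left out, although the differences kept their sign and most of their size. ZNF492 differed by 0.76 ± 0.22 (SE, limma adjusted p = 0.0313), and its call was lost without replicate 2 or 3 of the parental cells or without any 1 of the N8 arrays (difference 0.63 to 0.91 over all arrays left out, adjusted p up to 0.118). ZNF229 rose by 0.41 ± 0.11 (limma adjusted p = 0.0169), a call lost without replicate 2 of the parental cells or replicate 3 of N8 (difference 0.34 to 0.46, adjusted p up to 0.0784). ZNF639 fell by 0.45 on the log2 scale (limma adjusted p = 0.0253), a call lost without replicate 2 or 3 of the parental cells or replicate 1 of N8 (difference −0.53 to −0.34, adjusted p up to 0.105). In N4, ZNF483 fell by 0.49 ± 0.08 (limma adjusted p = 0.0104), with 6.93, 6.69 and 6.97 in N4 and 7.31, 7.40 and 7.34 in the parental cells. That call was lost without replicate 2 or 3 of the parental cells or replicate 2 of N4 (limma adjusted p up to 0.0674). The fall of ZNF567 in N4 (−0.39 ± 0.08, limma adjusted p = 0.0491) was lost in 13 of 18 fits that left out 1 array (up to 0.208). Limma's F test among the 3 wild-type lines called 25 members, beside 16.1% of all genes, and 16 without replicate 2 of N8. Its widest ranges were 1.29 for ZNF532, 1.22 for ZNF492 and 0.60 for ZNF24. The ZNF24 range was as low as 0.31 over the alternatives, and its call was lost in 1 (limma adjusted p up to 0.147).

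Replicate 1 differed from replicates 2 and 3 across lines. With the line as a term, 34 members passed (26 higher, 8 lower in replicate 1), beside 18.6% of all genes tested (8.56% higher, 10.0% lower), and 18 passed without replicate 1 of N8. All 12 chromosome 19 members called were higher, with a median of 0.06 over the 88, whereas other well expressed genes of chromosome 19 had a median of −0.06, with 14 called higher and 60 lower. ZNF711 was higher by 0.51 ± 0.08, ZNF83 by 0.36 ± 0.06 and ZNF536 by 0.34 ± 0.06 in replicate 1 (SE, limma adjusted p = 0.000566, 0.00105 and 0.00166). Lower in replicate 1 were ZNF593 by −0.30 ± 0.06 and ZNF622 by −0.23 ± 0.05, both with roles in making the large ribosomal subunit, and ZNF598 by −0.20 ± 0.05, a ubiquitin ligase that senses collided ribosomes (limma adjusted p = 0.00246, 0.00528 and 0.00946). The labels do not say what distinguishes replicate 1.

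Of 23 genes listed for the co-repressor and heterochromatin machinery of KRAB zinc finger proteins, 20 were tested. Among them, ZNF274 and ZNF445 are zinc finger genes and members themselves. In A30, 1 was higher and 9 were lower, with a median of −0.165, beside a median of 0.01 over all genes, of which 29.3% were called (12.9% higher, 16.3% lower). In B21, 1 was higher and 2 were lower, beside 16.0% of all genes called. In A10 1 was lower, ZNF274, beside 8.40% of all genes. In N8 1 was lower, ZNF445, needed to keep imprints (−0.24, limma adjusted p = 0.0441), beside 14.7%. Apart from these members, no gene of the list was called in A10 or N8. In N4 none passed, beside 0.547%. TRIM28, the scaffold, averaged 10.16 over all arrays and passed in no single-line comparison, with 10.31, 10.38 and 10.19 in A30 and 9.99 to 10.26 in the wild-type arrays. SETDB1 is not analysed here. CBX5, which encodes HP1 alpha, was at 7.81, 7.75 and 7.72 in A30 and 8.24, 7.98 and 8.05 in B21, against 8.37 to 8.87 (median 8.70) in the wild-type arrays. It fell by 0.87 on the log2 scale in A30 and by 0.54 in B21 (limma adjusted p = 6.93e-06 and 0.00129), with no overlap. DNMT3B, a de novo DNA methyltransferase, fell by 0.44 in A30, while DNMT1, the maintenance methyltransferase, which lies on chromosome 19, rose by 0.30 ± 0.06 in A30 and 0.17 ± 0.06 in B21 (SE). HDAC1 differed by −0.20 in A30 and −0.23 in B21, both called. The other falls called in A30 were ATF7IP2 at −0.49, RCOR1 at −0.28, the histone methyltransferase genes EHMT1 at −0.26 and SUV39H2 at −0.24, the demethylase gene KDM1A at −0.18 and CBX1, which encodes HP1 beta, at −0.18. DNMT3A passed in both F tests, with ranges of 0.27 among KO-labelled and 0.35 among wild-type lines. In replicate 1, CBX5 (0.23) and HDAC1 (0.11) were called higher and SUV39H1 lower (−0.16), beside 18.6% of all genes called. A list of MORC genes and of the HUSH complex, which silences retrotransposons, had 4 of 7 genes tested. Of these, 1 was higher in A10 (8.40% of all genes called), and 1 was higher and 1 lower in A30 (29.3%). In B21 0 were called (16.0%), and in N8 1 was lower (14.7%). The rises were both of MORC3 (0.33 in A10 and 0.29 in A30), not of a HUSH subunit. The falls were of PPHLN1 in A30 (−0.26) and MPHOSPH8 in N8 (−0.35). The NuRD list had 8 of 11 tested, with 0 in A10, 1 lower in A30, 1 higher and 2 lower in B21 and 1 higher in N8. These counts are to be read against the same shares of all genes, 8.40% in A10, 29.3% in A30, 16.0% in B21 and 14.7% in N8. Neither of these short lists was tested against those shares.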

How the data were processed

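The labels' protocols name a Qiagen miRNeasy kit for the RNA. The deposited log2 values, 1 per probe set and array, come from Affymetrix Expression Console per the submitters' processing notes, which give neither version nor settings in what was used here. That they are log2 was inferred from their range (0.57 to 14.84), and array medians were 5.09 to 5.18, so no further normalisation and a pseudocount of 0 were used. Precision is limited by the number of arrays.

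Of 53617 probe sets, 16098 had 1 gene symbol and 0 had several. Genes were tested if at least 3 arrays exceeded 5.6, which left 9686. All were fitted and adjusted together (Benjamini-Hochberg, two-sided) with limma 3.58.1 in R 4.3.3, on 6 line means for genotype and on 18 arrays for single lines, F tests and replicate 1. Genes with adjusted p under 0.05 were called. Fits were tested on simulated data. Chromosomes and gene order came from RefSeq. Promoters were aligned with Biopython 1.88, and figures drawn with matplotlib 3.10.9.

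Named genes are the 5 highest means, 3 on each side of the threshold, the 5 smallest p per direction for genotype, the 3 largest rises, falls or ranges called in each other comparison, the member called in each KO-labelled line, and, with TRIM28, the co-repressor genes called in any comparison. ZNF43, ZNF91, ZNF681, ZNF100, ZNF829, ZNF473, ZNF410, ZNF592, ZNF462 and ZNF850 were chosen after their values were seen. The members and lists were chosen with earlier results of these data known. Alternatives covered the filter, normalisation, probe set choice, variance model, thresholds, membership level, line and replicate terms, control lines, single arrays and neighbouring genes. Protein sequences were not used here.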

Additional observations from a re-analysis of the deposited data

Results flagged for a closer look

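The members below were singled out because limma's F test found that their difference from the wild-type lines was not the same in A10, A30 and B21, the lines that carry the same label. This held for 63 of the 192 members (32.8%), beside 25.8% of all genes tested and 31.2% of other well expressed genes outside chromosome 19, a share close to that of the other well expressed genes. Each value is the range of the 3 KO-labelled line means on the log2 scale, for those among the 63 that the text names by its rule. The range was 1.27 for ZNF711, with A10 highest and B21 lowest, and 0.96 for ZNF827, with A30 lowest. ZNF383 and ZNF718 spanned 0.65 each, ZNF774 0.60, ZNF841 0.58 and ZNF385A 0.53. ZNF607 and ZNF483 spanned 0.51 each, with A10 lowest for ZNF607 and highest for ZNF483. ZNF462 spanned 0.49, ZNF174 0.47, ZNF622 0.46, ZNF850 0.44, ZNF24 0.43 and ZNF280B 0.40. The smaller ranges were 0.35 for ZNF75A, 0.34 for ZNF70, 0.30 for ZNF146, 0.29 for ZNF207, 0.28 for ZNF747 and 0.23 for ZNF121. Each line is 1 clone, so differences among them hold whatever sets clones of 1 label apart, and its nature was not tested.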

How the results depend on the processing

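No named member turned its direction under any alternative that gave a value. Part of this was fixed in advance, because F test ranges have no direction and stricter thresholds reuse the main differences. Of the values, 1421 kept their call or lack of one, 106 lost a call and 11 gained one. Those that kept a lack of call are the named genotype members, which had no call to lose. Quantile normalisation gave 23 higher and 15 lower members for replicate 1, against 26 and 8 as deposited, and 56 higher and 24 lower in A30, against 43 and 24. The genotype count was 0 except with the line ignored (15 members) and without line A10 (1). A fold of at least 1.5 left 1 member called in A10, 5 in A30, 3 in B21, 0 in N4, 2 in N8, 6 and 3 in the F tests among KO-labelled and wild-type lines, and 0 for replicate 1. With adjusted p under 0.01 the same counts were 5, 43, 11, 0, 8, 29, 11 and 11. With no filter, more genes were tested, and counts were 8 in A10, 1 in N4, 15 in N8, 16 among wild-type lines and 20 for replicate 1. Quantile normalisation left 1 in N4. A mean of at least 6.5 gave 38 among wild-type lines, and 7.5, which leaves 121 members, gave 41 in A30, 17 in B21, 1 in N4, 15 among wild-type lines and 22 for replicate 1. With the parental cells alone as reference, counts were 42 in A30 and 17 in B21. The chromosome 19 median minus the other median was then −0.055 in A10, 0.205 in A30 and 0.1133 in B21. Deviations of same-numbered arrays from their line means correlated at a lowest r of 0.165, 0.0901 and −0.00369 for replicates 1, 2 and 3, and 15 of 18 arrays were closest to their own number, a hint from the data and not the design. The replicate block gave 31 in A10 and 54 among wild-type lines, and a term for replicate 1 gave 30 and 49. Centring on neighbouring genes, which include the members themselves, takes out part of the members' own shift. It left 2 in A10, 29 in A30, 13 in B21, 1 in N4, 8 in N8, and 17 and 6 in the F tests. With this centring the chromosome 19 contrasts were 0.0413 for genotype, 0.0128 in A10, 0.0781 in A30 and 0.0678 in B21. That contrast for genotype was 0.195 without line A10 and 0.04 without A30. In alternatives added after seeing the data, replicates 2 and 3 alone gave 34 in A10 and a genotype contrast of 0.0783, and replicate 1 alone gave −0.055 in N4.

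Leaving out 1 array gave 5 to 28 members in A10, 47 to 74 in A30, 11 to 32 in B21, 0 to 4 in N4, 14 to 32 in N8, 40 to 70 and 16 to 34 in the F tests, 18 to 44 for replicate 1 and 0 to 0 for genotype. The contrasts then ran from −0.0539 to −0.0136 in A10, 0.1969 to 0.2428 in A30 and −0.0433 to 0.0033 in N4. Except where fewer samples or a stricter rule explains a lower count, the cause was not tested. Most members' differences are under 1.5-fold, a size that 3 arrays per line resolve for some members only, and 3 lines per label leave the genotype comparison with little resolution.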
